A study of Mus musculus with 9 samples.

Results

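Lamina-associated domains are long parts of a chromosome in contact with the nuclear lamina, the protein mesh under the inner nuclear membrane. Lamin B1 is one of the filament proteins of that mesh. Such domains are known to be poor in active genes, and genes in them are mostly silent. In differentiating cells some stretches are known to detach from the lamina, and others attach to it.

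The regions described here are autosomal stretches that lay inside Lamin B1 domains in every embryonic heart sample of embryonic day 9.5 (E9.5) and in no sample of day 12.5 (E12.5). They were found by marking each 1-kb position of chromosomes 1 to 19 as inside or outside a called domain in each of 7 domain lists. There were 275 such regions with a summed length of 26.8 Mb. They came from 1018 stretches, 459 Mb in all, that lay inside the domains of all 4 E9.5 lists, called held stretches here. Of these held stretches, 244 contained at least 1 region. The position-wise background is the same count in another form: 5.83% of the held 1-kb positions were in no E12.5 list, and 1.87% of all autosomal positions inside a domain of any list were called by this rule. Because the regions were chosen by this contrast between ages, their numbers, lengths and shapes are descriptions and carry no test.

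The study profiled Lamin B1 by chromatin immunoprecipitation and sequencing in whole, untreated hearts from CD1 mouse embryos to see where the genome meets the lamina at the 2 ages. The E9.5 group had 4 samples, each a pool of hearts from 3 litters, and the E12.5 group had 3 samples, each a pool of 6 embryos. Age and the kind of pool change together and cannot be told apart. A whole heart holds several cell types, and a domain list does not separate them: a loss of contact in all cells and a shift in the mix of cells cannot be told apart. The heart label could not be checked against marker genes, since the lists hold only positions. Each list had 1500 domains, of which 1463 to 1488 were autosomal and covered 766 to 804 Mb. The ages differed in domain length. The median autosomal domain measured 227 to 244 kb in the E9.5 lists and 310 to 311 kb in the E12.5 lists. Whether a fixed number of domains was kept per list is not given in the sources used here. What the number and the lengths mean for stretches read as absent at E12.5 was not tested. The lists give no score, signal or read count, so the depth behind a boundary is unknown. Positions are 1-based on mouse build mm9. No annotation of that build was used, so no gene was placed in a region and no sequence is shown.

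The regions were short beside the domains they lay in. Their median length was 66.0 kb, the middle 50% lay between 25.5 and 140 kb, and the longest covered 754 kb. Length was concentrated in few of them: 102 regions of at least 100 kb held 75.4% of the summed length, and the 10 longest held 16.9%. At the other extreme, 40 regions were at most 10 kb long and together made up 0.766% of the length.

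The rule asked for all 4 E9.5 lists and none of the 3 E12.5 lists, and much more length lay 1 list away from it. Of the held length, 46.6 Mb (10.1%) was in exactly 1 E12.5 list, 110 Mb (24.0%) in 2 and 276 Mb (60.1%) in all 3. On the other side, 34.4 Mb lay in 3 of the 4 E9.5 lists and in no E12.5 list. The list that most often kept such a position out was E9.5 replicate 3, alone responsible for 13.1 Mb, against 8.98 Mb for replicate 4, 8.23 Mb for replicate 1 and 4.07 Mb for replicate 2. Among the E12.5 lists the sole cover was 17.8 Mb for replicate 2, 15.1 Mb for replicate 1 and 13.8 Mb for replicate 3. The summed length thus depended on how many E12.5 lists were asked: without E12.5 replicate 1 it was 41.8 Mb, without replicate 2 it was 44.6 Mb and without replicate 3 it was 40.5 Mb.

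Whether such regions recur in samples that did not choose them was read from held-out lists. Regions were chosen again from 3 E9.5 and 2 E12.5 lists, and their length inside the domains of the remaining E9.5 and the remaining E12.5 list was measured, in all 12 combinations. With fewer lists choosing, these sets were larger, with 420 to 526 regions and 47.0 to 62.8 Mb against 275 and 26.8 Mb. The coverage is therefore that of these larger sets and not of the 275 regions alone. A held-out E9.5 list covered 78.3% ± 7.05 of the region length (SD, n = 4), and a held-out E12.5 list covered 34.9% ± 2.47 (SD, n = 3). E9.5 replicate 2 covered 86.6%, replicate 1 covered 79.8%, replicate 4 covered 77.3% and replicate 3 covered 69.5%. For E12.5 the values were 37.8% in replicate 2, 33.8% in replicate 1 and 33.2% in replicate 3. The ages did not overlap, and the E9.5 list was above the E12.5 list in 12 of 12 combinations, by 32.5 to 51.8 percentage points. The combinations share lists, so no p is attached to this count. For comparison, each E12.5 list covered 78.6% to 80.1% of the whole held length, and each E9.5 list covered 84.0% to 94.2% of the length held by the other 3.

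**Figure D1:**
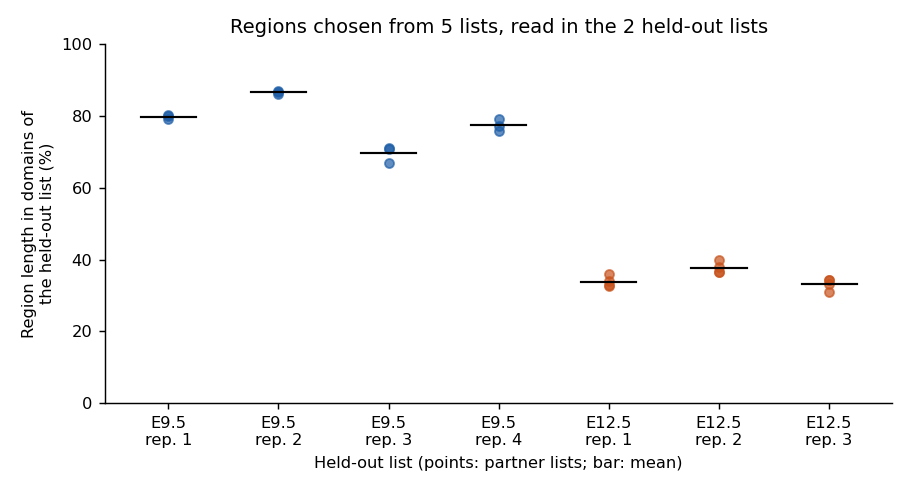
Share of region length (y axis, percent) inside the domains of a list that took no part in choosing the regions. Points are the combinations with each partner list and bars their mean. The E9.5 means lie between 69.5% and 86.6% and the E12.5 means between 33.2% and 37.8%.

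Domain ends were the commonest shape. Each side of a region was read at the next 1-kb position: on an outer side an E9.5 domain stopped there, and on an inner side an E12.5 domain began there. A region with 1 outer and 1 inner side is a domain end, a region with 2 inner sides is a gap inside a domain, and a region with 2 outer sides is a held stretch that was absent as a whole, called a lost core. Of the 275 regions, 177 (64.4%) were domain ends, 47 (17.1%) were gaps and 49 (17.8%) were lost cores, while 2 had a side where both happened at the same position. Nearly every side was set by 1 list alone, 267 of 277 outer sides by 1 E9.5 list and 266 of 271 inner sides by 1 E12.5 list. These shapes therefore depend on where single lists stop or begin, and so also on differences between samples of 1 age. Lost cores were longer, with a median of 113 kb against 79.0 kb for gaps and 50 kb for ends. They therefore made up 28.5% of the length, gaps 17.7% and ends 52.8%. The 2 ends of a domain were about equally often concerned, with 90 regions at the low-coordinate end and 87 at the high-coordinate end. Only 11 held stretches had a region at both ends.

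**Figure D2:**
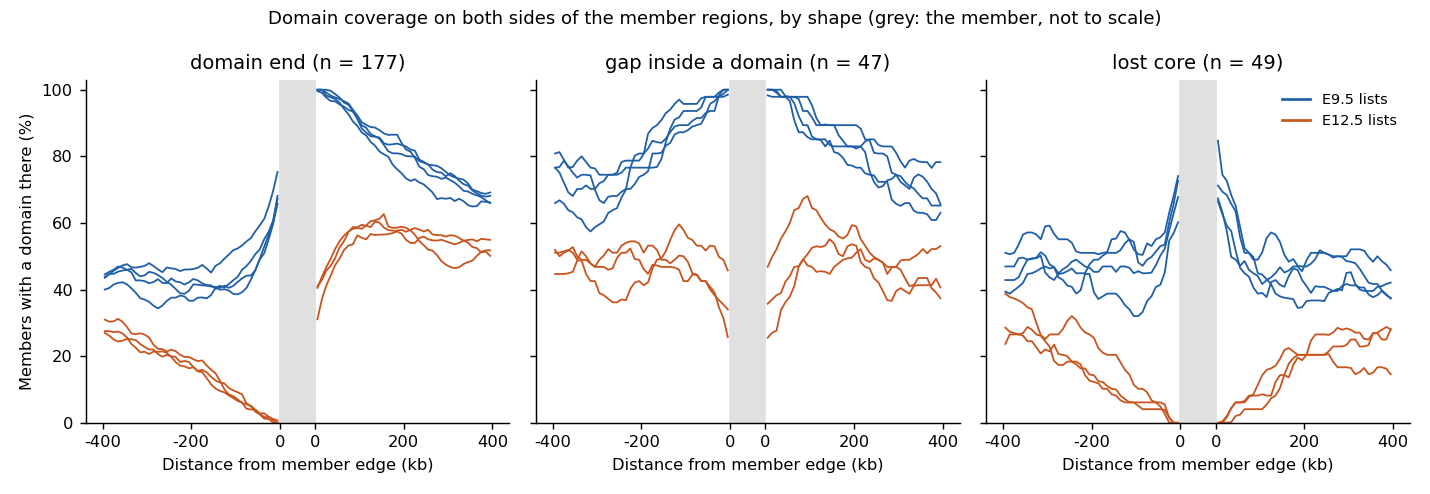
Share of regions (y axis, percent) with a domain at a given distance from the region's edge (x axis, kb), 1 line per list, for the 3 shapes. Domain ends are turned so that the outside of the domain is on the left. At 100 to 110 kb on the inner side of domain ends, 87.2% to 90.3% of the regions were in E9.5 domains and 55.5% to 59.4% in E12.5 domains.

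The neighbourhood was read by shape, and the definition of each shape fixes part of it. Just inside a domain end, within 10 kb of the region, each E12.5 list had a domain at 31.1% to 41.0% of the 177 ends, and at 100 to 110 kb at 55.5% to 59.4%. The rule fixes that at least 1 of the 3 E12.5 lists has a domain at the inner edge itself. Outside the same regions, E9.5 lists still had a domain at 65.7% to 75.3% within 10 kb and at 45.9% to 57.5% at 50 to 60 kb. The rule likewise fixes that at least 1 E9.5 domain stops at the outer edge. Around lost cores, which by definition no E12.5 domain touches, E12.5 lists had a domain at 2.45% to 6.12% of the 49 regions at 50 to 60 kb. E9.5 lists covered 40.8% to 58.8% at that distance. The outer side of domain ends was as empty there, with E12.5 domains at 3.31% to 3.94%. At 200 to 210 kb from lost cores the E12.5 lists had a domain at 12.65% to 26.53%. Beside gaps, within 10 kb on either side, each E12.5 list had a domain at 25.5% to 46.8% of the 47 regions.

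The ends of the domains differed between samples of 1 age. For the 177 domain ends, the 4 E9.5 boundaries spread over a median of 261 kb, and the nearest E12.5 boundaries on the inner side spread over a median of 244 kb in the 3 lists. The region is by the rule the shortest distance between any E9.5 and any E12.5 boundary, with a median of 50 kb, so its length is not the shift of a typical sample. From the median E9.5 boundary to the middle E12.5 boundary the distance was 381 kb in the median. This is not the movement of 1 domain end either, since the nearest E12.5 boundary can belong to another domain. At an end on chromosome 7 the middle E12.5 boundary lay 12902 kb away, and at one on chromosome 3 the E9.5 boundaries spread over 4966 kb. Where a list had no further domain on that side, a placeholder longer than any chromosome was entered. At 22 of the ends all 3 E12.5 boundaries lay within 50 kb of the region, and at 27 all 4 E9.5 boundaries did. The region was longer than the spread of the E9.5 boundaries at 34 ends and than that of the E12.5 boundaries at 39. It was longer than both spreads at only 14 of the 177 ends (7.91%). The 5 longest domain ends are described next. All 5 are among these 14, so they are not typical of the domain ends.

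The longest domain end covered 515 kb of chromosome 1, from 119524001 to 120039000. The E9.5 domains reached 117, 0, 165 and 133 kb beyond it in replicates 1 to 4, and in the E12.5 lists the remaining domain stopped 0, 51 and 47 kb short of it. In all 12 pairs of an E9.5 and an E12.5 list the domain lost 1 end. On chromosome 5 from 109208001 to 109634000, a region of 426 kb, the E9.5 domains began 26, 48, 0 and 24 kb before the region. The E12.5 domains began 0, 104 and 151 kb after it. These 4 E9.5 domains were alike at both ends, with lengths of 933, 950, 894 and 926 kb. On chromosome 5 from 146540001 to 146842000, a region of 302 kb, the right end of the domain was absent. The E9.5 domains ran 43, 0, 89 and 127 kb past the region, and the E12.5 domains stopped 126, 0 and 23 kb before it.

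Chromosome 12 had a domain end of 291 kb from 97007001 to 97298000. The E9.5 starts agreed closely, at 11, 14, 0 and 21 kb before the region, whereas the E12.5 starts lay 236, 26 and 0 kb after it. Chromosome 2 had one of 276 kb from 39125001 to 39401000. Its E9.5 domains began 30, 32, 0 and 30 kb before the region and its E12.5 domains 3, 0 and 20 kb after it, so within each age the samples differed by at most 32 kb.

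The 2 longest regions were lost cores. The longest of all lay on chromosome 4 from 113175001 to 113929000 and covered 754 kb. The E9.5 domains that held it measured 2420, 2301, 784 and 877 kb in replicates 1 to 4. Their right ends lay within 85 kb of each other, while the left ends differed by over 1.5 Mb. To the left, the nearest E12.5 domain was 2100, 1933 and 2071 kb away, and to the right 1976, 7245 and 439 kb. No base of these 4 E9.5 domains was in any E12.5 list, in all 12 pairs. The region closed a run of 3 lost cores within 2289 kb, with neighbours of 64 and 259 kb from 111640001 and from 112292001. The E9.5 domains around all 3 shared no base with an E12.5 list in all 12 pairs. In E9.5 replicates 1 and 2 the 3 regions lay in 1 and the same domain, so there they are not 3 separate domains. The run was singled out after its values were seen. In its span the E9.5 lists had 2289, 2289, 1077 and 1842 kb in domains and each E12.5 list had 0. The 3 regions are 1077 kb of each E9.5 value, which leaves 1212, 1212, 0 and 765 kb outside them.

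The second lost core covered 586 kb on chromosome 14 from 50749001 to 51335000. Its E9.5 domains were close to the same object in all 4 samples, 651, 629, 609 and 884 kb long. The nearest E12.5 domains stood 95, 9219 and 9234 kb to the left and 294, 524 and 524 kb to the right, and 11 of the 12 pairs shared no base. A region of 345 kb on chromosome 6 from 89750001 to 90095000 was similar. Its E9.5 domains measured 471, 369, 457 and 476 kb, and again 11 of the 12 pairs shared no base. The exception was E9.5 replicate 3, whose domain began 37 kb before the region, with E12.5 replicate 2, whose domain ended 31 kb before it.

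Other long lost cores were parts of larger domains. On chromosome 10 from 15598001 to 16034000, 436 kb, the E9.5 domains measured 1683, 484, 2202 and 998 kb, and only 4 of 12 pairs lost the whole domain, 7 lost an end and 1 was split. On chromosome 4 from 145655001 to 146053000, 398 kb, E9.5 replicate 1 had a domain of exactly that stretch, whereas replicates 2, 3 and 4 had domains of 1132, 2236 and 2265 kb. The E12.5 lists agreed there to within 3 kb: the nearest domains ended 462, 465 and 462 kb to the left and began 722, 721 and 723 kb to the right. The empty interval was thus the same in all 3 E12.5 samples, and the length of the region was set by E9.5 replicate 1.

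Gaps inside domains were often closed by different lists on their 2 sides. The longest covered 462 kb on chromosome 4 from 74170001 to 74632000 inside E9.5 domains of 1027, 1642, 892 and 1073 kb. On its left the E12.5 domains stood 0, 2 and 312 kb away and on its right 644, 0 and 122 kb. Only 5 of its 12 pairs were splits and 7 were lost ends. A gap of 262 kb on chromosome 5 from 87541001 to 87803000 was a split in 11 of 12 pairs. Its left side was shared by the 3 E12.5 lists, at 0, 4 and 9 kb, but on the right the next domain came after 0, 79 and 288 kb. On chromosome 2 a gap of 255 kb from 111533001 to 111788000 had its left side at 27, 59 and 0 kb and its right side at 838, 0 and 692 kb. The remaining 2 of the 5 longest gaps, 308 kb and 250 kb, lay on chromosome 13 and are given with the run there.

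**Figure D3:**
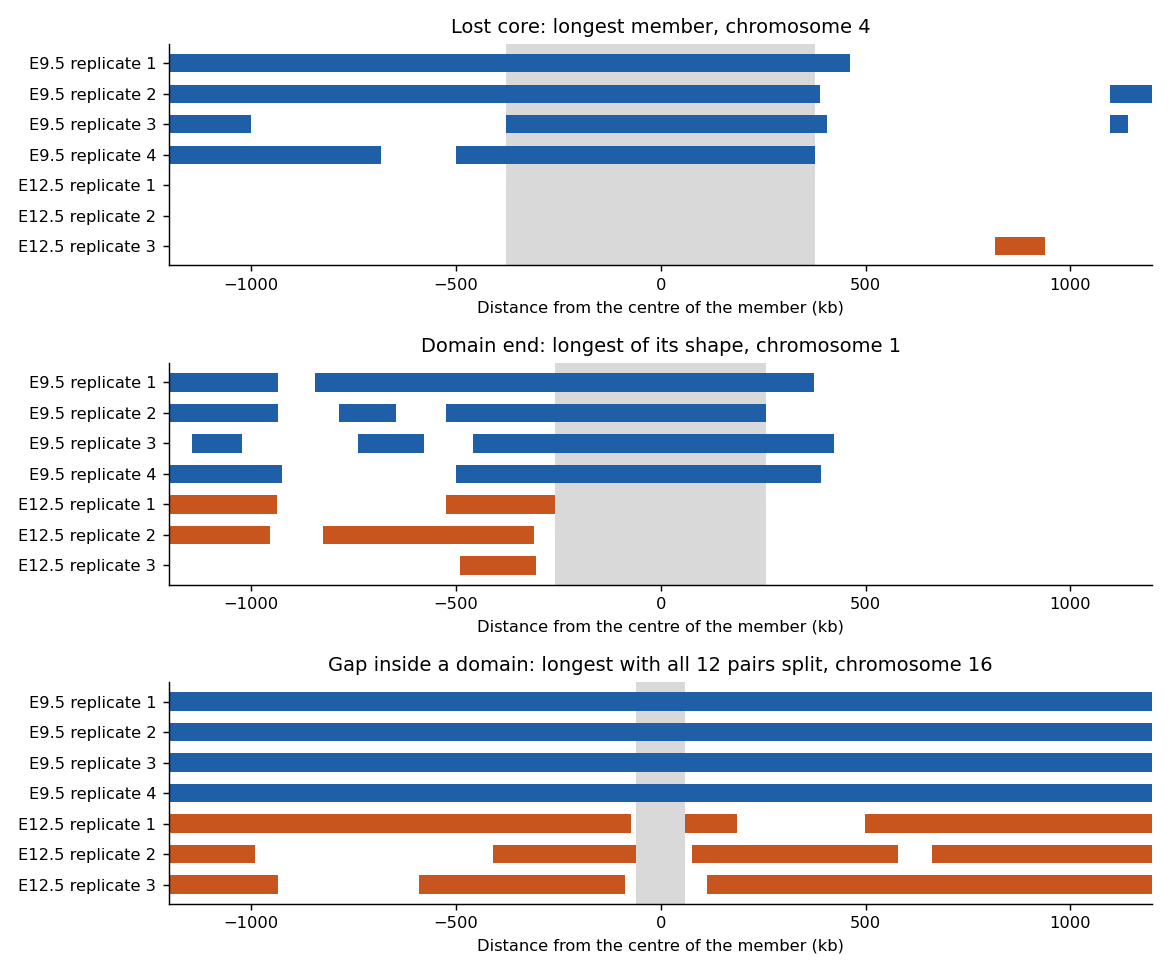
Domains of each list (bars) around 1 region of each shape (grey), against the distance from its centre in kb. The 754-kb region has no E12.5 domain over it, the 515-kb region ends the E12.5 domains on its left, and the 120-kb region interrupts a domain that is continuous in all 4 E9.5 lists.

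The longest gap that was a split in all 12 pairs measured 120 kb, on chromosome 16 from 80094001 to 80214000. It lay inside single E9.5 domains of 5089, 6033, 5752 and 5997 kb. In the E12.5 lists the next domains stood 13, 0 and 26 kb to the left and 0, 16 and 52 kb to the right. The break was not the only one near it at E12.5. Measured from the centre of the region, and within 1200 kb of it, replicate 1 had a further break from 185 to 498 kb. Replicate 2 had further breaks from -989 to -409 kb and from 579 to 661 kb, and replicate 3 had one from -935 to -591 kb, where negative distances are to the left.

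Following the whole E9.5 domain gave a similar division. In each of the 12 pairs of lists, the E9.5 domain around a region was traced in the E12.5 list: it could share no base (whole domain absent), share bases on 1 side of the region (end lost) or on both (split). By the commonest outcome over the 12 pairs, 159 regions (57.8%) were lost ends, 54 (19.6%) splits and 48 (17.5%) whole domains, and 14 were tied. The outcome was the same in all 12 pairs for 43 ends, 21 whole domains and 8 splits. All of these are counts of regions, and neighbouring regions can share 1 E9.5 domain. Agreement with the reading by edges was partial: 128 of the 177 domain ends, 30 of the 49 lost cores and 27 of the 47 gaps had the matching outcome. The other lost cores sat in E9.5 domains that ran further in some samples and met an E12.5 domain there.

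The 21 regions that were absent as whole domains in all 12 pairs had a median of 98.0 kb. Chromosome 13 held 6 of them, chromosome 4 the 3 of the run already described, and chromosome 6 another 3. After the 754-kb region the longest was the 268-kb region between 119658001 and 119926000 of chromosome 13. The same chromosome had a 264-kb region between 26696001 and 26960000, and chromosome 6 a 232-kb region between 57808001 and 58040000. The 264-kb region followed 2 smaller ones, of 28 kb from 26340001 and of 60 kb from 26516001, so that 3 neighbouring stretches were absent together there as on chromosome 4. The 8 regions that were splits in all 12 pairs were shorter, from 14 to 120 kb with a median of 74.0 kb. They lay on chromosomes 1, 2, 6, 8, 9 and 16, with a pair each on chromosomes 2 and 9. These sets are named here because of their outcome, after the values were seen.

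How much of a domain counts as remaining matters for this division. When an E9.5 domain that shared under 50% of its length was counted as absent, whole domains made up 59.3% of the regions, lost ends 24.0% and splits 13.1%. The share of whole domains was 26.3% without E9.5 replicate 4, 11.2% without E12.5 replicate 2 and 10.8% without E12.5 replicate 3.

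Regions at E9.5 lay in long domains. In each E9.5 list 212 ± 3.78 domains (SD, n = 4) held 1 or more of the regions, which was 14.3% ± 0.241 of its autosomal domains. Their median length was 717, 719, 602 and 693 kb in replicates 1 to 4, against 242, 241, 244 and 227 kb for all autosomal domains. A long domain offers more positions, so the comparison position by position is more even: the domain behind a region position had a median of 920, 974, 784 and 904 kb, and the domain behind any held position 1680, 1778, 1531 and 1659 kb. By position the regions thus lay in shorter domains than the held length as a whole, in all 4 lists. Regions made up a median of 12.1% ± 1.74 of the domain they lay in. The E12.5 lists covered a median of 42.6% to 45.9% of these domains on average and 50.2% to 54.6% of all E9.5 domains. The rule lowers the first values, since a domain with a region has positions in no E12.5 list. In E9.5 replicate 3 the values were close. There E12.5 replicates 1 to 3 covered 43.9%, 42.5% and 42.3% of the domains with regions and 43.5%, 43.6% and 46.7% of all domains. Of the domains with regions, 26.0 ± 2.31 per list (12.3% ± 0.956) shared no base with any E12.5 list, against 304 ± 40.4 (20.5% ± 2.74) of all autosomal domains. The domains with regions were longer, and this last comparison makes no allowance for length.

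Short held stretches were absent as a whole at E12.5 more often than long ones. Part of this is built in, since every position of the stretch must then be in no E12.5 list. The E12.5 lists also had longer domains, with medians of 310 to 311 kb against 227 to 244 kb in the E9.5 lists. The bearing of that difference on short stretches was not tested. Of 83 held stretches under 50 kb, 8 (9.64%) were absent as a whole, of 362 from 50 to under 200 kb 28 (7.73%), of 267 from 200 to under 500 kb 11 (4.12%), and of 179 from 500 kb to under 1 Mb 2 (1.12%). None of the 127 held stretches of 1 Mb or longer was absent as a whole. The share of held stretches with any region did not follow this order. It was 14.5%, 22.1%, 29.2%, 26.8% and 20.5% from the shortest to the longest class. The part of the length that was absent was 11.6%, 11.9% and 11.9% in the 3 shorter classes, 6.52% from 500 kb to under 1 Mb and 1.65% at 1 Mb or longer. The longest class still held 19 of the 47 gaps and 18 of the 177 ends. Nothing in these counts was tested, since the same lists chose the regions.

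Domain ends and gaps touch a domain of at least 1 E12.5 list by definition, but the number of lists with a domain close by is not fixed. An E12.5 domain lay within 50 kb of the region in all 3 lists for 48 of the 275, in 2 lists for 84 and in 1 list for 105. In the other 38, all of them lost cores, every E12.5 list was empty to that distance on both sides.

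Along the chromosomes the regions were uneven. Relative to the held length, which is the only place a region can arise, the share absent at E12.5 was 17.6% on chromosome 13, 10.5% on chromosome 4 and 9.18% on chromosome 14. It was 0.477% on chromosome 15, 0.558% on chromosome 19 and 0.619% on chromosome 18, against a median of 5.20% over the 19 chromosomes. Chromosomes 15, 18 and 19 together had 45.5 Mb of held length and only 6 regions with 0.241 Mb. The regions there measured 60 and 61 kb on chromosome 15, 73 and 7 kb on chromosome 18, and 36 and 4 kb on chromosome 19. On these chromosomes the 3 E12.5 lists jointly covered 88.6%, 85.4% and 77.8% of the held length of 15, 18 and 19, and more of each lay in domains at E12.5 on average.

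**Figure D4:**
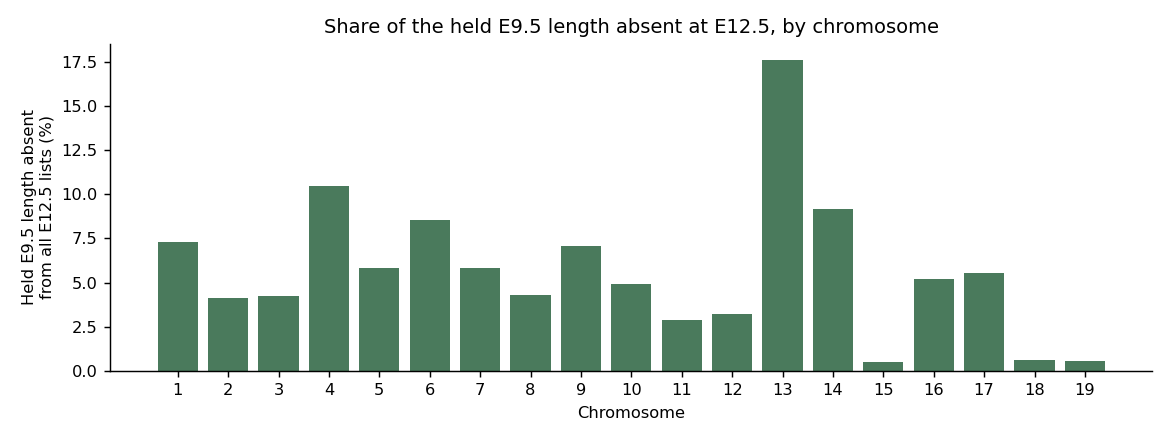
Length of the regions as a percent of the length inside the domains of all 4 E9.5 lists (y axis), by chromosome (x axis). Chromosome 13 stands at 17.6% and chromosome 4 at 10.5%, and chromosomes 15, 18 and 19 are below 1%.

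Chromosome 13 had the most regions and the highest share. It held 30 regions with 2.74 Mb, of which 14 were domain ends, 9 lost cores and 6 gaps, in a held length of 15.5 Mb. That is 19.3 regions per 10 Mb of held length, against 9.27 on chromosome 7, the next highest. Only 33.4% of its held length was in all 3 E12.5 lists. In domains it had 28.0, 32.9, 31.0 and 29.6 Mb in E9.5 replicates 1 to 4 and 27.5, 25.7 and 25.03 Mb in E12.5 replicates 1 to 3. Every E9.5 list was above every E12.5 list, although E9.5 replicate 1 and E12.5 replicate 1 were close. The rule fixes part of this order, since the 2.74 Mb of regions is in each E9.5 value and in no E12.5 value. E9.5 replicate 1 exceeded E12.5 replicate 1 by less than that length, so outside the regions the 2 ages overlapped. The share absent rose to 28.9% without E12.5 replicate 1 and to 27.8% without E12.5 replicate 2, and chromosome 13 stayed above each other chromosome in each of the 7 leave-one-out settings. Without chromosome 13 the share over the other autosomes was 5.41%.

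Within chromosomes, neighbouring regions often lay close together. The median gap between neighbours on a chromosome was 2720 kb, and 94 of 256 gaps (36.7%) were at most 1 Mb. Joined at that distance, 152 regions (55.3%) fell into 58 runs of 2 or more, of which 8 had at least 4 regions, and 123 regions stood alone. Held stretches are themselves bunched, with 87.2% of them within 1 Mb of another, so the runs are no measure of clustering beyond that. Of the 94 close pairs, 29 lay in 1 and the same domain in all 4 E9.5 lists and 20 shared a domain in none. What separated them also varied: in 29 pairs only an E12.5 domain came between, in 28 only a break in an E9.5 domain, and in 37 both. The first 2 kinds were near neighbours, at medians of 161 and 153 kb, and the third lay at a median of 651 kb.

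In windows of 5 Mb the length of the regions was unevenly spread. The 35 regions of at least 200 kb held 39.4% of that length, so the window counts are no measure of clustering. Of 250 windows with at least 500 kb of held length, 130 (52.0%) had no position of a region, and 23 windows carried 50% of the length. Of the held 0.613 Mb between 50000001 and 55000000 of chromosome 14, 586 kb (95.6%) was absent at E12.5, all of it the single lost core there. On chromosome 10 from 15000001 to 20000000 it was 436 kb of 0.513 Mb (85.0%), again a single lost core. Both windows had little held length, so that 1 region made up most of it. Chromosome 4 had 2 such windows. From 110000001 to 115000000 1077 kb of 1.79 Mb held (60.2%) was absent, and from 145000001 to 150000000 826 kb of 1.19 Mb (69.7%).

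The run with the most regions was on chromosome 13 from 85719001 to 88764000. It had 6 regions of 70, 308, 140, 38, 250 and 55 kb, 861 kb in a span of 3045 kb. They comprised 2 domain ends, 2 gaps and 2 lost cores. Within the span the E9.5 lists had 2578, 2847, 2667 and 2943 kb in domains, and the E12.5 lists had 1176, 648 and 774 kb. The rule fixes 861 kb of this contrast directly. The rest is not free of the choice either. The run was picked from the same lists for its number of regions, and its span begins and ends at a region. In the 2184 kb of the span outside the regions the E9.5 lists had 1717, 1986, 1806 and 2082 kb, and the E12.5 values are the same as over the span. The E12.5 domains that remained did not coincide: around the 308-kb gap from 86440001 to 86748000, replicate 1 touched both sides, replicate 3 stood 274 and 97 kb off, and replicate 2 stood 1391 and 575 kb off. The 250-kb gap from 87679001 to 87929000 was touched by replicate 2 on the left and replicate 1 on the right. With neighbours joined up to 2 Mb the run grew to 10 regions over 6259 kb from 82505001.

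**Figure D5:**
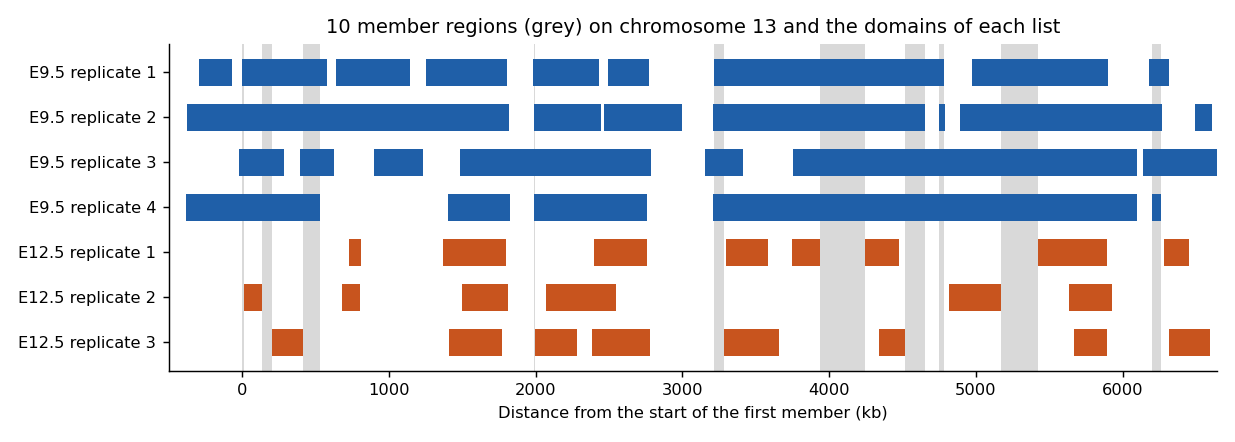
Domains of the 7 lists (bars) over the 10 regions (grey) on chromosome 13, against the distance from the start of the first region in kb. E9.5 lists had 4668 to 5656 kb of the 6259 kb in domains and E12.5 lists 1678 to 2049 kb. The regions themselves are 1062 kb of the E9.5 values, and the E12.5 domains are in pieces that differ between the E12.5 samples.

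The next runs had 5, 5, 5 and 4 regions. They were picked in the same way, so their values outside the regions are not free of the choice either. On chromosome 16 from 53411001 to 55733000, 5 regions summed to 813 kb, and E9.5 lists had 1907 to 2322 kb of the 2322 kb span in domains against 939, 207 and 522 kb in E12.5 replicates 1 to 3. On chromosome 8 from 52430001 to 53381000, 4 regions summed to 442 kb inside what was close to 1 unbroken domain at E9.5, with 912, 951, 951 and 951 kb of the 951 kb span covered. The E12.5 lists had 79, 370 and 100 kb there. Outside the regions the E9.5 lists had 1094 to 1509 kb on chromosome 16 and 470 to 509 kb on chromosome 8, so that replicate 1 at E12.5 with 939 kb on chromosome 16 and replicate 2 with 370 kb on chromosome 8 came nearest to them.

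On chromosome 5 from 86650001 to 88704000, 5 regions summed to 520 kb, and 1893 to 2017 kb of the span was in domains at E9.5 against 1327, 985 and 979 kb at E12.5. Outside the regions the E9.5 lists had 1373 to 1497 kb there, close to E12.5 replicate 1. On chromosome 4 from 3939001 to 7005000, 5 regions, all of them domain ends, summed to 317 kb. There E9.5 lists had 2115, 2374, 1494 and 1915 kb in domains and E12.5 lists 911, 573 and 940 kb. Outside the regions the E9.5 values were 1798, 2057, 1177 and 1598 kb. E9.5 replicate 3 was the lowest of its age, and it was also the list that covered least of the regions chosen without it.

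Regions of the opposite kind, inside all 3 E12.5 lists and no E9.5 list, numbered 250, and 5.2% of the positions held at E12.5 were of this kind. Of these, 56.4% were domain ends, 18.8% gaps and 24.4% lost cores by their edges. By the whole domain, 8.0% were splits and 33.6% whole domains, against 19.6% and 17.5% of the regions absent at E12.5. In runs of 2 or more lay 38.4% of them, against 55.3%. The 2 directions ask for different numbers of lists on each side. They also trace domains of different length, with medians of 310 to 311 kb in the E12.5 lists and 227 to 244 kb in the E9.5 lists. The shares are therefore not directly comparable, and no test of these differences was made.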

How the data were processed

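Per the labels, Lamin B1 chromatin immunoprecipitation was sequenced in 7 pools of CD1 embryonic hearts, with 2 input libraries that were not used here. The authors deposited 1 list of called domains per sample, each a chromosome, a start and an end, with no score. Build mm9 and the aligner Bowtie are named in the submitters' processing notes. How domains were called from them, and with what threshold or input, is not given in the sources used here. Each list has in its name a number that no source explains (0.17, 0.15, 0.14 and 0.12 at E9.5, 0.12, 0.12 and 0.13 at E12.5). A setting that differed between lists could move boundaries.

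All starts and ends were multiples of 1 kb. Lists were read as 1-kb positions (Python 3.11.15, numpy 2.4.6, pandas 2.3.3), and regions, edges, whole-domain outcomes over 12 pairs, runs joined up to 1 Mb and held-out coverage were computed. The search and both shape readings were run on simulated lists with planted ends, gaps and whole losses. There the boundaries of the lists nearly coincided, the planted losses were longer than most regions here, and short finds were dropped. This checked the code, and cannot show how well shapes are read where boundaries differ as much as in these lists. Samples were grouped by their titles. No test between ages was made, because the regions were chosen by that contrast. Named regions are the 10 longest, the 5 longest of each shape, the 5 runs with the most regions (ties by summed length) and the 3 chromosomes with the highest and lowest shares. The regions and these readings were chosen with earlier results of the same data known. Alternatives were leaving out each list, a minimum domain length, joined domains, a minimum region length, 1 exception per age, other limits for an absent domain and other run distances.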

Additional observations from a re-analysis of the deposited data

Results flagged for a closer look

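E9.5 replicate 1 stood apart from the other E9.5 lists in 1 value: 52 of its domains held 2 or more regions, against 46, 45 and 45 in replicates 2, 3 and 4. Of 16 values checked in this way, 1 stood apart, and chance flags about 1 in 20.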

How the results depend on the processing

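With 1 list left out, the number of regions was 306 to 402 and their summed length 30.8 to 44.6 Mb. Domain ends made up 60.3% to 64.7%, gaps 16.2% to 17.9% and lost cores 17.3% to 23.0%. By the whole domain, lost ends made up 49.5% to 61.1%, splits 13.4% to 22.9% and whole domains 10.8% to 26.3%. Regions in runs made up 55.3% to 63.7%, and the share of held length on chromosome 13 was 17.1% to 28.9%. With only regions of at least 50 kb there were 163, with 54.6% domain ends and 25.2% lost cores by edges, 50.3% lost ends by the whole domain, and 41.1% in runs. With 1 exception allowed per age there were 1102 regions and 149 Mb. Counting a domain as absent when under 50% was shared gave 24.0% lost ends, 13.1% splits and 59.3% whole domains. Runs joined up to 0.5 Mb held 39.6% of regions and those up to 2 Mb held 66.9%. Of 114 values under alternatives, 88 stayed within 1.5 times a count or length, the 95% binomial interval of a share or 1 SD of held-out coverage. These included all those with only domains of at least 100 kb or with joined domains. No paired analysis was possible because no result comes from a test. The unknown depth and the unstated calling settings limit every boundary.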
